A study of Mus musculus with 24 samples.

Results

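S100a8, S100a9, Lcn2, Ngp, Retnlg, Csf3r, Cxcr2 and Il1r2, 8 genes associated with neutrophils, were followed across all 24 libraries of mouse brain microvessels. They were taken by gene symbol from a table of 17270 genes. All 8 were present, and all 8 passed the filter on low values (a mean above 5 normalized counts), as did 15982 genes in all.

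Male C57BL/6J mice aged 10 to 12 weeks underwent transient middle cerebral artery occlusion (tMCAO, called stroke here) lasting 60 min. Sham animals had the same operation, with the filament advanced and withdrawn at once. Both kinds of animal were killed after 24 h or 7 days, perfused through the heart with saline, and each cerebrum was divided into the operated (ipsilateral) and the opposite (contralateral) hemisphere. This gave 8 groups: sham or stroke, 24 h or 7 days, ipsilateral or contralateral. Each group held 3 libraries, and each library pooled the hemispheres of 3 animals, so a group drew on 9 animals. Microvessels were the fraction held back by a fine mesh after the meninges had been peeled off, which leaves any blood cell attached to or caught in the vessels in the preparation. The study reports that more pools were made and that samples its analysis identified as outliers were left out. Pooling hides the spread between single animals, and the p-values below measure the spread between the pools that were kept.

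Neutrophils are short-lived white blood cells that leave the bone marrow and enter injured tissue early. G-CSF, read by the receptor Csf3r, drives their production and release. CXC chemokines, read by Cxcr2, guide them through the vessel wall, and their cytosol and granules carry S100a8, S100a9, Lcn2 and Ngp. After brain ischemia they collect in and around small vessels of the injured hemisphere. In such bulk RNA, more neutrophils and more RNA per neutrophil cannot be told apart, and several of these genes are also made by other cells, Lcn2 by endothelial cells and astrocytes among them.

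S100a8 and S100a9 are the subunits of calprotectin, the most plentiful cytosolic protein of neutrophils. They lie next to each other on chromosome 3, S100a8 at chr3:90668978-90670035 on the plus strand and S100a9 at chr3:90692632-90695721 on the minus strand, 22596 bases apart (GRCm38, as are all positions here). Lcn2, which binds bacterial siderophores and so withholds iron, is at chr2:32384633-32387797, and Ngp, a granule protein of maturing neutrophils, at chr9:110419747-110423012. Retnlg, a resistin-like secreted protein, is at chr16:48872608-48874498. Csf3r is at chr4:126024550-126044440, Cxcr2 at chr1:74153989-74161246, and Il1r2, the decoy receptor that captures interleukin-1 without signalling, at chr1:40084698-40125231. All are protein-coding genes, and each has 1 value per library.

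C/EBP factors drive the granule programme of developing neutrophils, so the promoter windows of the 5 soluble members are shown with the letters TTGCNNAA, a C/EBP consensus searched on both strands, in capitals. Each window is the RefSeq sequence (GRCm38.p6) from 250 bases before to 50 bases after the gene's RefSeq start. It is read 5′ to 3′ on the gene's own strand. For S100a8, Lcn2 and Ngp the RefSeq start lies inside the gene limits given above. The windows cover chr3:90668821-90669120 for S100a8, chr3:90695672-90695971 for S100a9, chr2:32387690-32387989 for Lcn2, chr9:110419558-110419857 for Ngp and chr16:48872358-48872657 for Retnlg.
S100a8: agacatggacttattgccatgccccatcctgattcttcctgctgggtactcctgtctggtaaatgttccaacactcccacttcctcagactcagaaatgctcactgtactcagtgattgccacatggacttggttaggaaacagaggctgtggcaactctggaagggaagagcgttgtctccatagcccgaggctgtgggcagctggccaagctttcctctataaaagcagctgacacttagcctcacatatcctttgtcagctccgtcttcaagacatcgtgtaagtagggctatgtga
S100a9: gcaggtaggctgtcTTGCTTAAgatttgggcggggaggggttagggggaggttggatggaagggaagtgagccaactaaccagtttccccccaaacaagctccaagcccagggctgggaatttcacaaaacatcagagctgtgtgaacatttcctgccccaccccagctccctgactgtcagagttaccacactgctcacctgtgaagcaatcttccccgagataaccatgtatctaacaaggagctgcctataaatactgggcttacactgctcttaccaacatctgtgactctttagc
Lcn2: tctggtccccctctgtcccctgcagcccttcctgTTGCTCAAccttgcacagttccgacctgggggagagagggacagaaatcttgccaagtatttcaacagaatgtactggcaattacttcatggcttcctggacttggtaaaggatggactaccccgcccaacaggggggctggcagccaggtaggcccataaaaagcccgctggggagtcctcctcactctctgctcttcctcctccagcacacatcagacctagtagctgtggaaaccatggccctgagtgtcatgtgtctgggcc
Ngp: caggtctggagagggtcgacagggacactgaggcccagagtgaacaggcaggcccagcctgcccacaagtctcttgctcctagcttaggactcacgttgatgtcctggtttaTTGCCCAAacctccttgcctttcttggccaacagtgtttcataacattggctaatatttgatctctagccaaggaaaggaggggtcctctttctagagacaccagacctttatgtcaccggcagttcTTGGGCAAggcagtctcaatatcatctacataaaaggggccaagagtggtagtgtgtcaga
Retnlg: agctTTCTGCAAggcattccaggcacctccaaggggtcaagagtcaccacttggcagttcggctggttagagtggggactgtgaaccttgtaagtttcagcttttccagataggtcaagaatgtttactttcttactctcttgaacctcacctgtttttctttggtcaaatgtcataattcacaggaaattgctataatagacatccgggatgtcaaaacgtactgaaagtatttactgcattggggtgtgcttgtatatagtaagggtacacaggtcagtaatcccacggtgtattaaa
The letters occurred in 4 of the 8 members, in S100a9, Lcn2 and Retnlg at 1 place and in Ngp at 2 places. They were present in 10.8% of all 32851 promoter windows of the same length. The last Ngp match lies at bases -11 to -4 before the RefSeq start, while the other 4 lie between 131 and 246 bases before it. S100a8 held none of these letters in its window, although its values followed those of S100a9 closely. The PU.1 letters GAGGAAG, searched on both strands, were found in S100a8, Lcn2 and Csf3r, against 13.6% of all windows. The STAT3 letters TTCCNGGAA occurred in none of the 8, against 1.15% of all windows. These are matches of letters, not measured binding.

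The values are normalized counts, that is, read counts per gene which the authors divided by a size factor for each library and rounded. Their totals ran from 15924780 to 18787932 per library, and the number of reads behind them is not known. Differences are given as log2 fold changes of the value plus 1, with the standard error (SE) from one limma fit over all 8 groups. A gene was called regulated when its p-value adjusted over all 15982 tested genes (Benjamini-Hochberg) stayed under 0.05 and it changed more than 1.5-fold in either direction. Endothelial markers were the largest marker sum in every library, at 337531 to 550345 normalized counts over 10 genes such as Cldn5 and Pecam1, against 24 to 735 for 8 neutrophil markers that are no members. Red cell markers ran from 424 to 76834, and were highest in the sham groups at 7 days (16586 to 76834).

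The order of the groups was much the same for every gene. For all 8 members the highest mean was that of the stroke ipsilateral group at 24 h, the second that of the stroke ipsilateral group at 7 days, and the third that of the stroke contralateral group at 7 days. The sham contralateral group at 24 h was lowest for 6 of the 8. The middle ranks changed from gene to gene, and their groups overlapped.

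**Figure D1:**
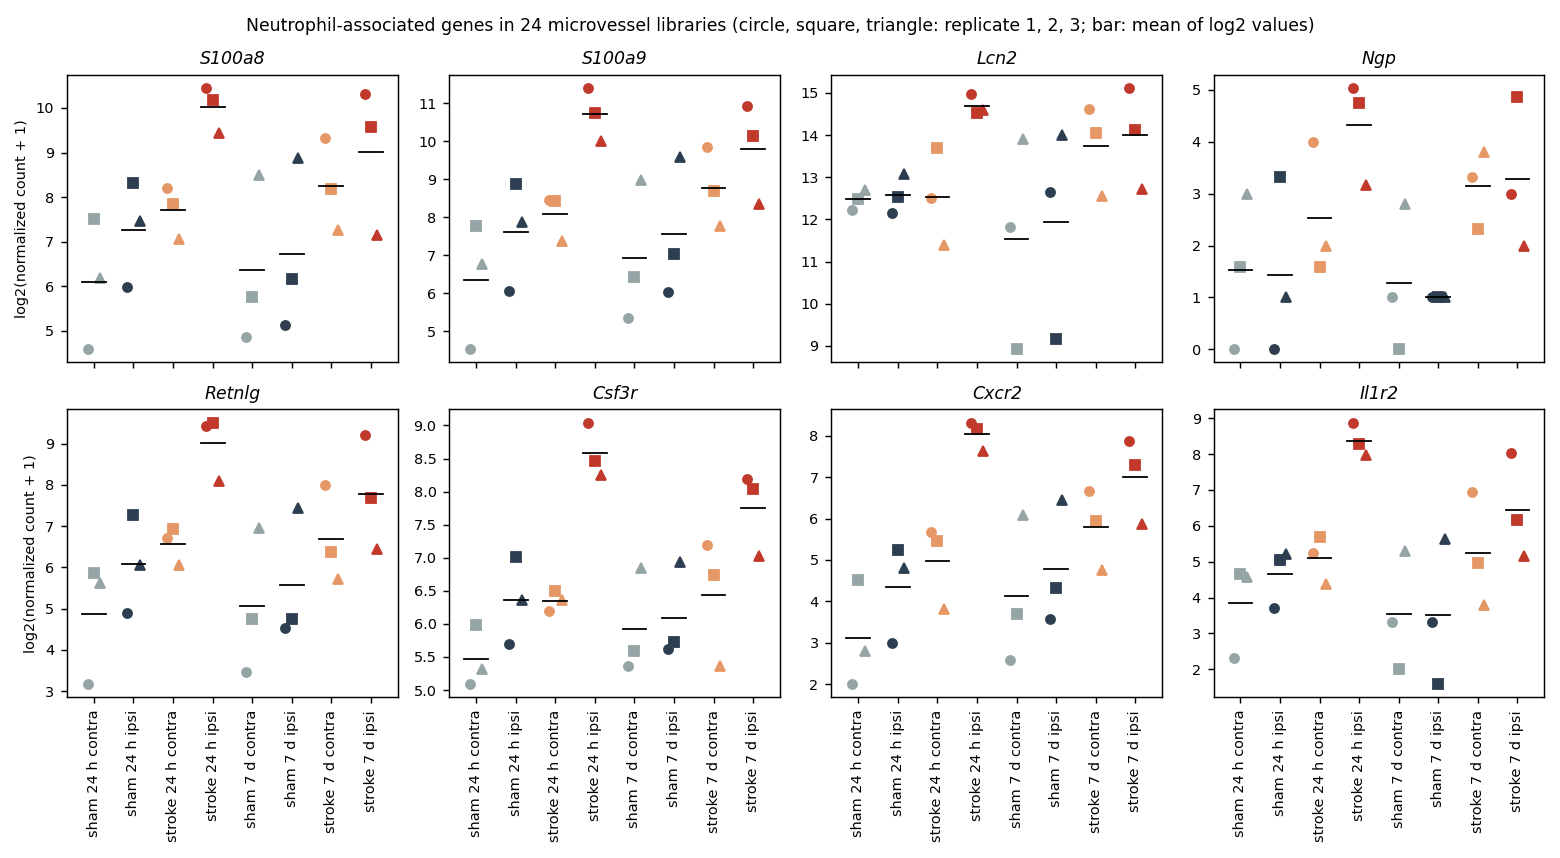
The 8 genes in the 24 libraries, on the log2(normalized count + 1) scale, by group. Circles, squares and triangles are the libraries numbered 1, 2 and 3, and bars are means of the log2 values. The stroke ipsilateral group of 24 h has the highest bar in each panel, although single libraries of other groups reach into its range for each gene but Csf3r, and triangles lead both sham groups at 7 days for all genes but Ngp.

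At 24 h, 7 of the 8 genes were higher in the ipsilateral hemisphere after stroke than after sham surgery, where 10.0% of all tested genes were called higher. Their log2 fold changes had a median of 2.91, against -0.02 for all tested genes. Lcn2, the remaining member, did not pass the test.

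S100a8 had 1404, 1150 and 690 normalized counts in the stroke ipsilateral libraries 1, 2 and 3 at 24 h, and 62, 320 and 176 in the sham ipsilateral ones. Every stroke library was above every sham library. The log2 fold change was 2.76 (SE 1.01, adjusted p = 0.0446). This call was kept in 1 of 6 fits that left out one library, where the adjusted p reached 0.184, and was lost with a robust prior (adjusted p = 0.0590). S100a9 reached 2718, 1698 and 1017 after stroke and 66, 472 and 235 after sham surgery, again without overlap. Its log2 fold change was 3.10 (SE 1.02, adjusted p = 0.0267). The S100a9 to S100a8 ratio of normalized counts stayed between 0.957 and 2.28 in all 24 libraries (median 1.47), while S100a9 itself ranged from 22 to 2718.

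Lcn2 was by far the most abundant member. After stroke it stood at 32368, 23389 and 24827 normalized counts in the ipsilateral hemisphere at 24 h, and after sham surgery at 4535, 5871 and 8703. The groups did not overlap, but the log2 fold change of 2.11 (SE 1.06) had an adjusted p of 0.135. With only the compared groups in the fit it was called higher (adjusted p = 0.00168). That fit leaves out the other groups, and in the sham groups of 7 days alone Lcn2 ran from 483 to 16388.

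Ngp was the weakest signal, with 32, 26 and 8 normalized counts after stroke and 0, 9 and 1 after sham surgery. The lowest stroke library lay under the highest sham library. The log2 fold change was 2.88 (SE 0.95, adjusted p = 0.0273), and at such low values it depends on the 1 added before the logarithm. Retnlg had 688, 727 and 273 normalized counts after stroke against 29, 152 and 66 after sham surgery, with no overlap. It rose by 2.93 on the log2 scale (SE 0.95, adjusted p = 0.0257).

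The 3 receptors gave the firmest calls. Csf3r, the G-CSF receptor, had 527, 351 and 304 normalized counts after stroke and 51, 128 and 81 after sham surgery. Its log2 fold change of 2.23 had the smallest error of the 8 genes (SE 0.48, adjusted p = 0.00195). Cxcr2, which reads Cxcl1 and Cxcl2, had 318, 283 and 198 after stroke and 7, 37 and 27 after sham surgery, a log2 fold change of 3.68 (SE 0.89, adjusted p = 0.00457). Il1r2 had 470, 308 and 249 after stroke and 12, 32 and 36 after sham surgery, a log2 fold change of 3.72 (SE 0.997, adjusted p = 0.00865). In all 3 receptors the lowest stroke library was more than 2-fold above the highest sham library.

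Stroke and sham libraries did not overlap for 7 of the 8 genes at 24 h, which held in the upward direction for 25.0% of all tested genes. For 6 genes (S100a8, S100a9, Retnlg, Csf3r, Cxcr2 and Il1r2) the 3 stroke ipsilateral libraries of 24 h were also above all 18 libraries outside the stroke ipsilateral groups. Csf3r, Cxcr2 and Il1r2 remained called in each of 6 fits that left out one library, S100a9 in 3, Ngp and Retnlg in 2 and S100a8 in 1. The count of genes called fell to 3 without sham ipsilateral library 1, without stroke ipsilateral library 1 or without stroke ipsilateral library 2, and to 4 without sham ipsilateral library 3.

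At 7 days fewer of the genes passed the test. All 8 genes had a positive log2 fold change in stroke against sham ipsilateral libraries (median 2.23, against 0.02 for all tested genes), and 2 were called higher, Csf3r and Il1r2, where 3.27% of all tested genes were. Csf3r had 292, 261 and 130 normalized counts after stroke and 48, 52 and 122 after sham surgery, a rise of 1.66 on the log2 scale (SE 0.48, adjusted p = 0.0210). The groups were separate, if only just. Il1r2 had 259, 70 and 35 against 9, 2 and 49, a rise of 2.93 (SE 0.997, adjusted p = 0.0485), and here stroke library 3 lay under sham library 3.

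The other 6 genes did not pass the test at 7 days. Before adjustment 7 of the 8 had a p under 0.05, as 29.3% of all tested genes had. S100a8 stood at 1271, 756 and 142 after stroke and at 34, 71 and 469 after sham surgery, with a log2 fold change of 2.29 (SE 1.01, adjusted p = 0.136). For S100a9 the values were 1927, 1131 and 324 against 65, 130 and 772 (2.24, SE 1.02, adjusted p = 0.145). In both genes stroke library 3 was low and sham library 3 was high, so that the groups overlapped. Lcn2 showed the same pattern, with 35743, 17860 and 6751 against 6448, 573 and 16388 (2.05, SE 1.06, adjusted p = 0.207). Retnlg had 593, 204 and 86 against 22, 26 and 173 (2.21, SE 0.95, adjusted p = 0.126). Cxcr2 had 233, 156 and 57 against 11, 19 and 86 (2.22, SE 0.89, adjusted p = 0.0975). Only Ngp was without overlap among these 6, with 7, 28 and 3 against 1 in every sham library (2.29, SE 0.95, adjusted p = 0.110). In all, 2 genes were without overlap, Csf3r and Ngp, against 13.4% of all tested genes.

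Both sham libraries numbered 3 at 7 days, ipsilateral and contralateral, were above the other 10 sham libraries for S100a8, S100a9, Lcn2, Cxcr2 and Il1r2. For Retnlg and Csf3r they were high as well, but a sham library of 24 h, with 152 and 128 normalized counts, exceeded one or both of them. The summed neutrophil markers moved with them, at 183 and 127 normalized counts against 24 to 40 in the other 4 sham libraries of 7 days, as did the summed red cell markers (76834 and 58272 against 16586 to 54709), astrocyte markers (36483 and 24701 against 12618 to 19116) and endothelial markers (499825 and 534568 against 344238 to 385496). T cell markers were higher too (129 and 88 against 77 to 85), and microglial markers were lower (1627 and 1471 against 1923 to 2437). The sums of monocyte and macrophage, platelet, B cell and mast cell markers overlapped. The part of these markers in the members' values was not tested. Without those 2 libraries 7 of the 8 genes were called higher at 7 days, Ngp being the exception, with log2 fold changes from 2.08 for Csf3r to 3.99 for Il1r2. This alternative was chosen after the data had been seen. Without sham ipsilateral library 3 alone 6 genes were called, and without stroke ipsilateral library 3 there were 3. None was called without sham ipsilateral library 1 or 2, or without stroke ipsilateral library 1 or 2.

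**Figure D2:**
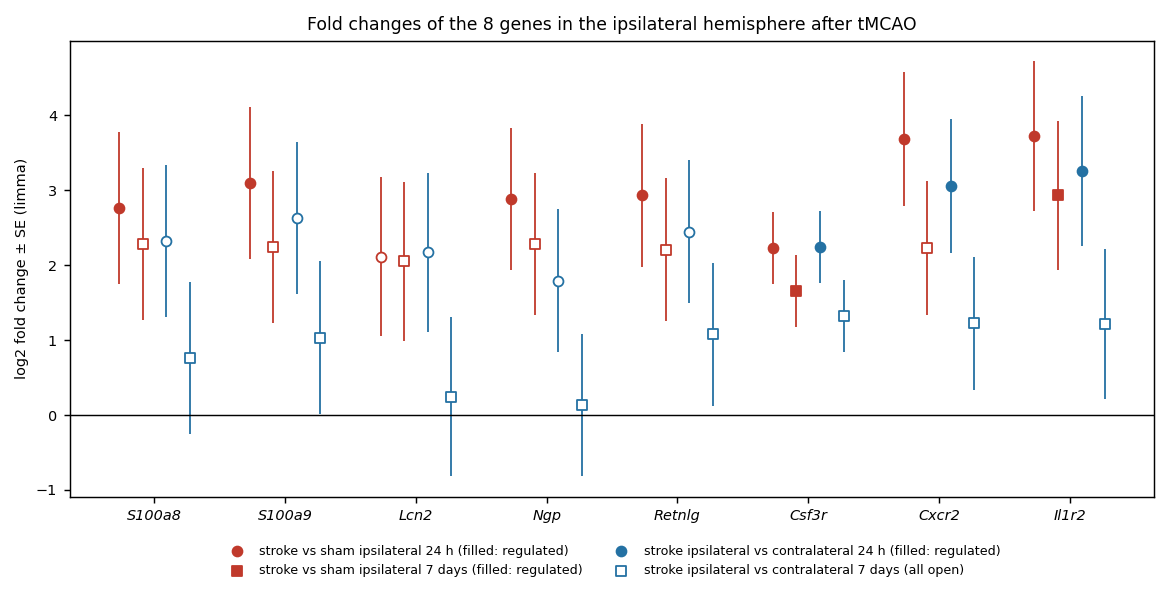
Log2 fold changes with their SE for the 8 genes, from stroke against sham ipsilateral libraries (red) and stroke ipsilateral against contralateral libraries (blue), at 24 h (circles) and 7 days (squares). Filled symbols are regulated genes, and the blue squares, all open, lie between 0.14 and 1.32.

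Between 24 h and 7 days, the stroke ipsilateral values of all 8 genes were lower at the later time, with log2 fold changes from -1.92 for Il1r2 to -0.71 for Lcn2 (median -1.02, against -0.04 for all tested genes). None was called, while 8.44% of all tested genes were called lower, and none had an unadjusted p under 0.05, as 33.0% of all tested genes had. Csf3r was the 1 member without overlap, with 292 as its highest value at 7 days and 304 as its lowest at 24 h (-0.83, SE 0.48, adjusted p = 0.240), where 19.9% of all tested genes were without overlap in that direction. The stroke effect itself, stroke against sham, was not shown to differ between the times for any of the 8. Those differences ran from -1.46 (Cxcr2, SE 1.26) to -0.06 (Lcn2, SE 1.498), where 8.12% of all tested genes were called. Their median of -0.66 turned to 0.18 without sham ipsilateral library 3 of 7 days.

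The contralateral hemisphere of the same surgery gave a second control. At 24 h Csf3r, Cxcr2 and Il1r2 were higher in the ipsilateral than in the contralateral stroke libraries, 3 of the 8 members, against 8.51% of all tested genes. Csf3r had 72, 89 and 81 normalized counts in the contralateral libraries, and the ipsilateral values given above were all higher (log2 fold change 2.24, SE 0.48, adjusted p = 0.00217). Cxcr2 had 50, 43 and 13 there (3.05, SE 0.89, adjusted p = 0.0168), and Il1r2 had 37, 51 and 20 (3.26, SE 0.997, adjusted p = 0.0217). These contralateral libraries lay far below the ipsilateral ones.

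S100a8 and S100a9 stood at 294, 229 and 132, and at 352, 340 and 164, in the contralateral stroke libraries of 24 h. Neither overlapped with its ipsilateral values, yet neither passed the test (2.32, adjusted p = 0.101 and 2.63, adjusted p = 0.0644). Retnlg (104, 120 and 66, log2 fold change 2.44, adjusted p = 0.0671) and Lcn2 (5799, 13164 and 2690, log2 fold change 2.17, adjusted p = 0.142) gave the same picture. Ngp (15, 2 and 3) overlapped. Together 7 of 8 genes were without overlap, against 21.7% of all tested genes. With only the 2 compared groups in the fit 7 genes were called. Without stroke ipsilateral library 1, without stroke ipsilateral library 2 or without stroke contralateral library 3 only Csf3r was called.

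At 7 days none of the 8 was called between the stroke hemispheres, where 3.03% of all tested genes were called higher, and 1 member, Csf3r, had an unadjusted p under 0.05, as 26.9% of all tested genes had. Csf3r had 145, 106 and 40 normalized counts contralaterally (1.32, SE 0.48, adjusted p = 0.0687). It was called without stroke contralateral library 1 or without stroke ipsilateral library 3. Lcn2, with 25097, 17061 and 6055, was nearly level with the ipsilateral hemisphere (0.24, SE 1.06). The other genes had log2 fold changes between 0.14 for Ngp and 1.22 for Cxcr2. This outcome depended on the fit. With same-numbered hemispheres fitted as pairs most members were called, as given at the end. After stroke the numbers were not taken to pair the samples.

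Same-numbered libraries of the hemispheres were also set side by side. At 24 h after stroke the ipsilateral library was above its same-numbered contralateral library in 3 of 3 cases for every gene. For the 7 genes without overlap any numbering would have given this. The S100a8 difference was nearly constant, between 2.25 and 2.38 on the log2 scale, whereas that of Lcn2 ran from 0.83 to 3.21. At 7 days after stroke Csf3r, Cxcr2, Il1r2, Retnlg, Lcn2 and S100a9 were again higher in 3 of 3, S100a8 in 2 of 3 and Ngp in 1 of 3.

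**Figure D3:**
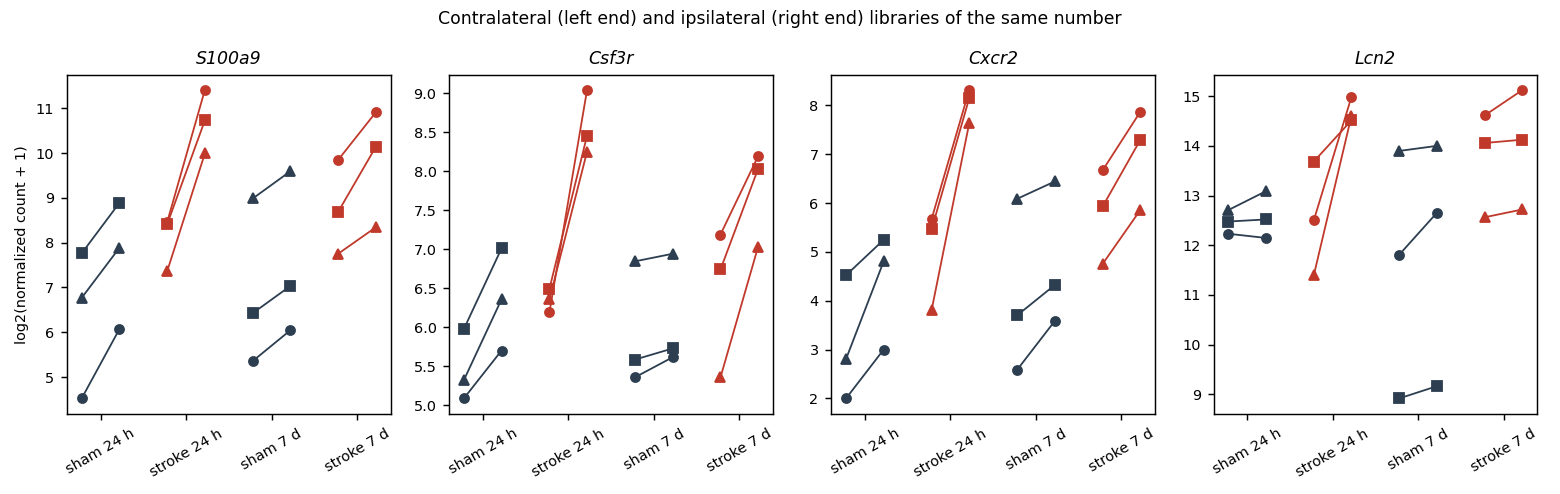
Contralateral and ipsilateral libraries of the same number joined by lines, for S100a9, Csf3r, Cxcr2 and Lcn2, on the log2(normalized count + 1) scale. Lines climb most in the stroke groups of 24 h, while those of Lcn2 at 7 days after stroke are nearly flat, with differences between 0.07 and 0.51.

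Between the sham hemispheres no member was regulated at either time. No gene at all was, which is 0% of those tested in both comparisons, with 367 genes (2.30%) at an unadjusted p under 0.05 at 24 h and 359 (2.25%) at 7 days, none of them a member. S100a9 was nevertheless higher in the ipsilateral library of each of the 6 same-numbered sham pairs, by 1.11 to 1.54 on the log2 scale at 24 h and by 0.61 to 0.69 at 7 days. In sham mice the numbers were taken to pair the hemispheres, from correlations in the data and not from the labels. With the pairs as a block S100a9 was called at 24 h (1.26, SE 0.15, adjusted p = 0.0288). It was then the only gene of the 15982 to be called, which is 0.00626% of them. That fit also blocked the stroke libraries by number, where the pairing was not taken to hold, and its error draws on them. S100a8, Csf3r and Cxcr2 differed in the same direction in 6 of 6 pairs as well and were not called. Summed red cell markers were also higher ipsilaterally in the 3 sham pairs of 24 h, at 1068, 12550 and 10520 normalized counts against 424, 4492 and 6129, with a median log2 fold change of 1.14 over 6 genes, none of them called. Their part in the S100a9 difference was not tested.

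In the contralateral hemisphere all 8 genes had positive log2 fold changes in stroke against sham libraries at both times, and none was regulated. The median was 1.44 at 24 h, where 0% of all tested genes were regulated and 1 member, Cxcr2, had an unadjusted p under 0.05 (1.87, SE 0.89, adjusted p = 1), as 2.53% of all tested genes had. At 7 days it was 1.77, where 0.0313% were regulated. The largest was Lcn2 at 7 days, with 25097, 17061 and 6055 after stroke and 3594, 483 and 15268 after sham surgery (2.20, SE 1.06, adjusted p = 0.489). With SEs of up to 1.06, differences of this size could not be detected. Retnlg and Csf3r were without overlap at 24 h, which is 2 of 8 genes against 3.96% of all tested genes in that direction. Red cell markers summed to 7237 to 14170 in the contralateral stroke libraries of 24 h against 424 to 6129 in the sham ones (median log2 fold change 2.12), and platelet markers to 381 to 673 against 263 to 379. At 7 days the red cell markers had a median of -1.48. None of these markers was called, and their part in the members' values was not tested.

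Whether the hemispheres differed more after stroke than after sham surgery was tested as an interaction. None of the 8 was regulated at 24 h (5.89% of all tested genes were) or at 7 days (9.84%). With same-numbered hemispheres fitted as pairs some members were called at both times, most of them at 24 h, as given at the end. At 24 h the members' median was 1.59, the largest was Il1r2 (2.46, SE 1.41, adjusted p = 0.293), and Csf3r had the smallest p (1.34, SE 0.68, adjusted p = 0.230). At 7 days the median was 0.48, and it turned to -0.40 without sham contralateral library 3 and to -0.01 without stroke ipsilateral library 1.

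The members varied more between libraries of one group than most genes did. Their residual standard deviation on the log2 scale was 0.64 for Csf3r, 1.21 for Cxcr2, 1.25 for Ngp, 1.30 for Retnlg and 1.35 to 1.45 for Il1r2, S100a8, S100a9 and Lcn2. The median of all tested genes was 0.24, and each member exceeded at least 91.0% of them. Within a group the members deviated together. S100a8 and S100a9 had a Pearson r of 0.988 over the 24 deviations from the group means, and over the 28 pairs of members the median r was 0.82. Among the 6 genes other than Lcn2 and Ngp, r was 0.796 or higher in every pair. Lcn2 deviated most like Il1r2 (0.87) and least like Ngp (0.28). Libraries are shared by all these points, so r describes this set of libraries only.

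**Figure D4:**
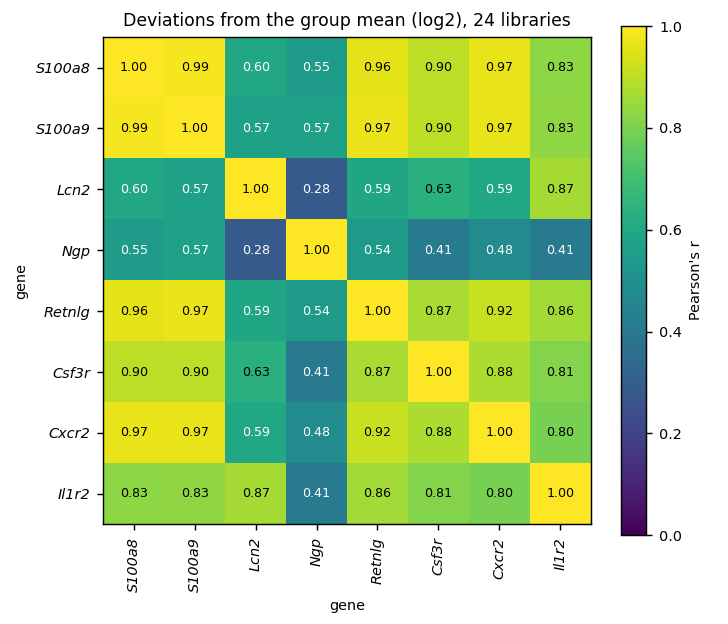
Pearson's r between the members' deviations from their group means (log2 scale, 24 libraries). The rows of Lcn2 and Ngp hold the low values, down to 0.28, and S100a8 and S100a9 the highest, 0.99.

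The genes whose log2 values followed the members' mean most closely over the 24 libraries were Mmp8 (r = 0.973), Slpi, Wfdc21, Slfn1, Dhrs9, Hp, Mmp9, Hdc, Ifitm1 and Clec4e (r = 0.932). Mmp8 is the collagenase and Mmp9 the gelatinase of neutrophil granules, and Slpi inhibits neutrophil elastase. For S100a8, S100a9 and Retnlg, the nearest genes included 2 of each other. Cxcr2 was nearest to S100a9 (r = 0.978), Csf3r to Slpi (0.965), Il1r2 to Mmp8 (0.964) and Ngp to Slpi (0.789). Lcn2 stood apart, with Ier3 (0.961), Cd14 (0.939) and Ch25h (0.933) as the nearest, none of them a member or a gene of the neutrophil lists used here. Cd14 is on the list of monocyte and macrophage markers.

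Per length, as normalized counts per 1000 bases of exon, Lcn2 was the most abundant member in the stroke ipsilateral group of 24 h (10241 ± 1839, SD, n = 3). It was followed by S100a9 (3469 ± 1640), S100a8 (1558 ± 521) and Retnlg (949 ± 424), and then by Il1r2 (179 ± 60.0), Csf3r (109 ± 32.6) and Cxcr2 (87.4 ± 20.2), with Ngp lowest. Csf3r was above Cxcr2 in each of the 3 libraries, and S100a8 above Retnlg, although the ranges of mean ± SD overlapped. In the sham ipsilateral group of 24 h Csf3r (24.0 ± 10.8) stood above Il1r2 (14.0 ± 6.74), again in each library and with overlapping ranges. These differences between genes were not tested.

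Several ligands of the receptors rose at 24 h as well. Of 16 ligands and partners, 14 were in the table and 12 were tested. In stroke against sham ipsilateral libraries, 6 were higher and 1 was lower at 24 h, and 1 was higher and 1 was lower at 7 days. Their median log2 fold change was 2.65 and then 0.50. Of all tested genes 10.0% were called higher and 8.23% lower at 24 h, and 3.27% higher and 9.95% lower at 7 days. Csf3, which encodes G-CSF and is read by Csf3r, went from 4, 10 and 66 normalized counts in sham libraries to 1086, 619 and 439 in stroke libraries (5.43, SE 1.59, adjusted p = 0.0147). At 7 days it had 62, 8 and 3 after stroke, against 6, 0 and 87 in sham libraries, and was not called.

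The Cxcr2 ligands Cxcl1, Cxcl2 and Cxcl3 were higher at 24 h. Cxcl1 had 1319, 1308 and 640 normalized counts after stroke against 30, 55 and 215 (3.84, SE 0.999, adjusted p = 0.00718), and Cxcl2 had 191, 175 and 49 against 1, 3 and 15 (4.56, SE 1.11, adjusted p = 0.00466). Cxcl3 had 135, 93 and 48 against 0, 2 and 2 (5.36, SE 0.59, adjusted p = 3.04e-06). At 7 days none of these 3 was called, and Cxcl3 was at 0 or 1 in every ipsilateral library of either surgery. Ppbp, another Cxcr2 ligand and a platelet gene, was not called at 24 h (1.45, SE 0.81, adjusted p = 0.180) or at 7 days (0.35, SE 0.81, adjusted p = 0.822). Cxcl5 did not pass the filter on low values and reached at most 21.

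Il1b, a ligand that Il1r2 captures, had 597, 185 and 578 normalized counts after stroke and 3, 41 and 22 after sham surgery at 24 h (4.67, SE 0.93, adjusted p = 0.001). The receptor antagonist Il1rn rose as well (4.66, SE 0.89, adjusted p = 0.000678). At 7 days neither was called (1.34, adjusted p = 0.370 and 0.80, adjusted p = 0.609). Il1a, which reached at most 9, was not tested. Slc22a17, a proposed receptor of Lcn2, was lower after stroke at 24 h (-1.03, SE 0.33, adjusted p = 0.0238) and at 7 days (-1.58, SE 0.33, adjusted p = 0.00203). Ager, a receptor of S100 proteins, was higher at 7 days (0.97, SE 0.23, adjusted p = 0.00659), whereas Tlr4, another such receptor, was not called at 24 h or at 7 days.

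Other neutrophil genes were followed beside the members. Their lists, like the members, were chosen with earlier results of these data known. Of 14 granule genes, 9 were in the table and 7 were tested. At 24 h 5 were higher in stroke ipsilateral libraries, at 7 days 2 were, and none was lower. Of all tested genes 10.0% were called higher at 24 h and 3.27% at 7 days. The largest was Chil3, a chitinase-like protein also made by macrophages, which had 3089, 1181 and 2663 normalized counts after stroke at 24 h and 52, 203 and 91 after sham surgery (4.42, SE 0.66, adjusted p = 7.43e-05). It stayed higher at 7 days, with 1790, 673 and 364 against 72, 48 and 101 (3.41, SE 0.66, adjusted p = 0.00108). Mmp8 (3.20, adjusted p = 0.0306), Mmp9 (2.69, adjusted p = 0.00063) and Cd177 (2.68, adjusted p = 0.000537) were called at 24 h and not at 7 days. The study's own DESeq2 test found Mmp9 significantly higher than sham at 7 days too. That test differs from the limma fit used here. Ltf, the lactoferrin of the same granules as Ngp and Lcn2, was called at 7 days (1.66, SE 0.45, adjusted p = 0.0137) and not at 24 h (0.65, adjusted p = 0.281).

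Of 24 genes of mature neutrophils, 21 were in the table and 19 were tested. At 24 h 15 were higher, with a median log2 fold change of 2.91, the same as the members' median. Both sets were chosen with earlier results of these data known, so this likeness is no independent check. Of all tested genes 10.0% were called higher at 24 h and 3.27% at 7 days. The largest rises were those of Trem1 (5.37, SE 0.87, adjusted p = 0.000156), which amplifies inflammatory signals, Clec4e (4.16, adjusted p = 0.00181), Acod1 (4.09, adjusted p = 0.000855) and Hp (3.76, adjusted p = 0.00093). At 7 days 4 were higher, Stfa2l1 (2.85, adjusted p = 0.00994), Lrg1 (2.85, adjusted p = 0.0117), Asprv1 (2.39, adjusted p = 0.00413) and Fcgr4 (2.16, adjusted p = 0.00139). Lrg1 is also a gene of the endothelium, and Fcgr4 is also made by macrophages. Ly6g, the surface marker by which mouse neutrophils are usually sorted, reached at most 21 normalized counts and was not tested.

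**Figure D5:**
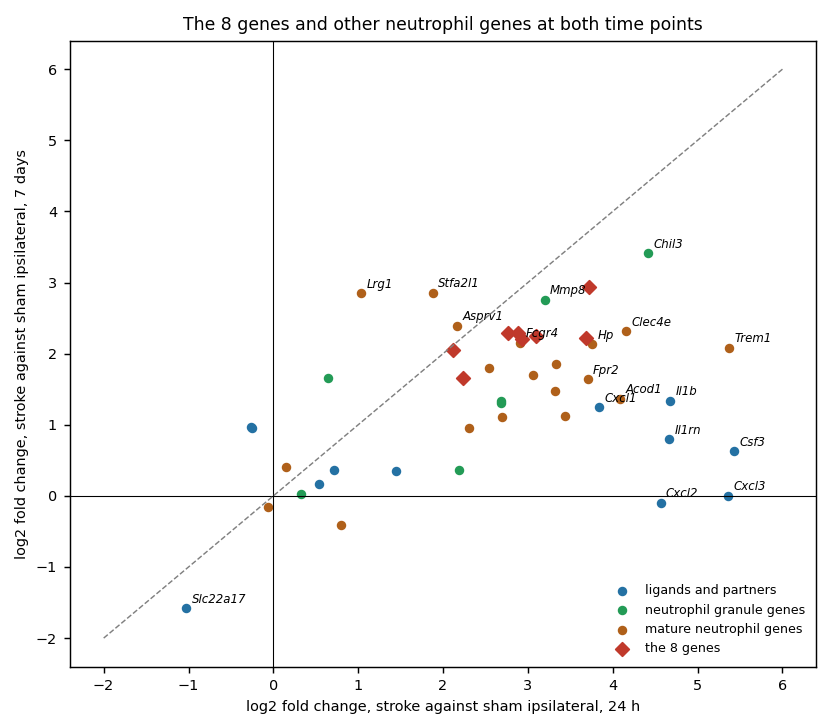
Log2 fold change in stroke against sham ipsilateral libraries at 24 h (horizontal) and at 7 days (vertical), for the 8 members (red diamonds) and the tested genes of the 3 lists. The dashed line marks equal values, and the ligands Csf3, Cxcl2 and Cxcl3 lie near 0 on the vertical axis although they exceed 4.5 on the horizontal one.

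Markers of some other cells moved with the members at 24 h, and those of others did not. The 10 monocyte and macrophage markers summed to 13157 to 21064 normalized counts in the stroke ipsilateral libraries of 24 h, against 6451 to 11049 in the sham ipsilateral ones, and 5 of them were higher. Platelet markers, 5 genes, summed to 657 to 787 against 246 to 544, and 2 were higher. The 8 neutrophil markers that are no members summed to 489 to 735 against 30 to 102, and to 103 to 644 after stroke at 7 days against 24 to 183 after sham surgery. Some of these markers are also on the granule and mature neutrophil lists above, so their sum repeats those genes in part. B cell markers summed to 56 to 88 against 16 to 35 at 24 h, with 2 of 4 higher, and T cell markers to 82 to 104 against 43 to 55, with 1 of 3 tested higher. Red cell markers had a median log2 fold change of 1.43 at 24 h, with 5 of 6 positive and none called. Microglial markers summed to 1965 to 2344 against 1762 to 2968 at 24 h, with none of 6 higher and 2 lower. Of 7 astrocyte markers none was higher and 3 were lower at 24 h, and they summed to 15927 to 20275 against 22805 to 29605. Of 10 endothelial markers 1 was higher and 1 was lower. Of all tested genes 10.0% were called higher and 8.23% lower at 24 h. The part of these other cells in the values of S100a8, S100a9, Lcn2 and Il1r2 was not tested.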

How the data were processed

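RNA from 24 microvessel pools (8 groups of 3) was sequenced from a stranded poly(A) library on an Illumina NextSeq. Per the labels (the submitters' processing notes), the authors aligned reads to mm10 (GRCm38) with STAR 2.5.2b, counted them with featureCounts 1.5.1 and normalized with DESeq2 1.6.2. The study's methods give the authors' versions of STAR and DESeq2 differently, and exclude reads that map to several places. The deposited values are these normalized counts, which the authors rounded to whole numbers, so they were treated as a score and not as raw counts. The depth is unknown, so no counting interval was given. The values were analysed as log2(value + 1) with limma 3.58.1 in R 4.3.3, with a mean-variance trend and genes of a mean above 5, over all 8 groups in one fit with 16 residual degrees of freedom. This fit was tested on simulated data. In all 15 contrasts were tested. Groups and replicate numbers came from the sample labels.

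The 8 genes and the lists of ligands, granule genes, mature neutrophil genes and cell markers were chosen with earlier results of these data known. All 8 members were named. From the lists, at most 4 genes with the largest rise and 2 with the largest fall among the regulated ones at each time were to be named, with the ligands of the 3 receptors whatever their values. Tlr4 and Ly6g, outside that rule, were named after their values were seen. Genes like the members were ranked by Pearson's r, 10 for their mean and 3 for each. Listed genes outside the table were not analysed here. Exon lengths came from GENCODE M21.

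Same-numbered libraries of both hemispheres were checked for pairing by the correlation of their deviations from the group means over all tested genes. In sham mice every r was above 0.1 (0.145 to 0.410 at 24 h and 0.325 to 0.467 at 7 days), so the numbers were taken to pair the samples there. After stroke this held for 2 of 3 pairs at 24 h and 1 of 3 at 7 days, and the samples were taken to share only a number. The alternatives were another pseudocount (0.5), another filter (none, or a mean above 20), median centring, no fold limit, a robust prior, a replicate block, a fit of the compared groups alone and leaving out each library.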

Additional observations from a re-analysis of the deposited data

How the results depend on the processing

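The direction of the 8 genes in stroke against sham ipsilateral libraries held under every alternative in which they were tested. With a mean above 20 Ngp was not tested. At 24 h the number called higher was 6 to 8 under the settings other than leaving out a library, and 3 to 7 when one library was left out. At 7 days, in place of 2, 1 gene was called with a mean above 20, with the robust prior, with the replicate number as a block and with only the compared groups in the fit; 7 were called without both sham 7-day libraries of number 3, and 0 to 6 without one library. Between the stroke hemispheres, in place of 3 at 24 h, 7 were called with only the compared groups, and 1 to 3 without one library. At 7 days, in place of 0, 1 was called with median centring and 0 to 1 without one library. The causes of these changes were not tested.

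With same-numbered hemispheres as a replicate block, 7 members were called between the stroke hemispheres at 24 h (10.1% of all tested genes were called higher) and 6 at 7 days (4.26%). In the interaction of hemisphere and surgery the block gave 7 at 24 h (7.66% higher) and 2 at 7 days (2.38%), and in sham mice it gave 1 at 24 h and 0 at 7 days in ipsilateral against contralateral libraries. After stroke the lowest correlation of such a pair was 0.0658 at 24 h and 0.0593 at 7 days, although each of the 12 libraries correlated best with its own number, a hint from the data and not from the design. With the replicate number as a block S100a8 lost its call at 24 h (adjusted p = 0.0544), as it did with the robust prior (adjusted p = 0.0590).

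Some values turned their sign when a library was left out. The median difference of the stroke effect between the times ran from -1.27 to 0.18, and was 0.18 without both sham libraries of number 3. That of the hemisphere interaction at 7 days ran from -0.40 to 1.45. Between the stroke hemispheres at 7 days Lcn2 ran from -0.35 to 0.88 and Ngp from -0.65 to 0.78. With 3 pools in a group, SEs of about 1 on the log2 scale for 7 of the 8 genes and an unknown read depth limit what can be detected, above all for Ngp.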
